A study of Homo sapiens with 8 samples.

Results

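The IFIT, IFITM and related interferon-induced genes described here are 10 genes found by symbol in the gene table, namely IFIT1, IFIT2, IFIT3, IFIT5, IFITM1, IFITM2, IFITM3, IFI27, IFI6 and IFI44L, out of 60282 genes listed. They were measured by RNA-seq in SK-UT-1, an established human cell line from a uterine leiomyosarcoma, a malignant tumor of the smooth muscle of the uterus. One group was treated for 48 h with 5 µM TP-472, a small-molecule inhibitor of the bromodomain proteins BRD9 and BRD7, and the other received DMSO as vehicle, with 4 replicates in each. All libraries thus come from 1 cell line, 1 dose and 1 time point, and no interferon treatment is named for either group. The study's statistics section speaks of biological replicates for its experiments in general, while the labels of these libraries only number them and name no separate cultures. The p-values therefore measure the spread between these samples, which may in part be technical.

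Interferons are secreted proteins that bind receptors on the cell surface and activate the kinases JAK1 and TYK2. These kinases phosphorylate STAT transcription factors, which act together with IRF9 on interferon-stimulated response elements (ISRE) in the promoters of interferon-stimulated genes. The IFIT proteins bind viral RNA and limit its translation, the IFITM proteins sit in membranes and hinder the entry of enveloped viruses, and IFI27, IFI6 and IFI44L are among the genes that interferon type I induces most widely. BRD9 and BRD7, the targets of TP-472, are subunits of different forms of the SWI/SNF chromatin remodeling complex.

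To show what the members share outside the measured RNA, their promoters were read from RefSeq (GRCh38.p14), each window covering 250 bases before to 50 after a gene's start. The core of an ISRE, taken as GAAA, any 2 bases and GAAA again, was searched on both strands, so that TTTC, any 2 bases and TTTC also counted. Of 35116 promoter windows in the genome, 3.57% held this core and 0.259% held at least 2 matches. All 8 members with a window in the promoter set used here held at least 2 matches. That set held no window for IFIT2 and IFITM2, so their promoters were not examined. The stretches below run 5′ to 3′ on the gene's own strand from the first to the last match with 10 bases on each side, and capitals mark the ISRE cores. They are shown because the 8 members with a window shared at least 2 cores per window.
IFIT1 (chr10:89392497-89392539, plus strand): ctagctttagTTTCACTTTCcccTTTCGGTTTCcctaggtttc
IFIT3, first window (chr10:89327831-89327894, plus strand): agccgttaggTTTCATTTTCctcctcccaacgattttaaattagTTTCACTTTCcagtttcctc
IFIT3, other window (chr10:89332425-89332497, plus strand): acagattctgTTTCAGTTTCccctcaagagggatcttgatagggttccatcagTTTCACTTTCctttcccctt
IFIT5 (chr10:89414513-89414583, plus strand): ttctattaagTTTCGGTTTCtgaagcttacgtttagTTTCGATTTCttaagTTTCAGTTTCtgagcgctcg
IFITM1 (chr11:313990-314053, plus strand): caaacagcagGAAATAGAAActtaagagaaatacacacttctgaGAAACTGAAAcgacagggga
IFITM3 (chr11:320876-320922, minus strand): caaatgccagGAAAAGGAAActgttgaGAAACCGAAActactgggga
IFI27 (chr14:94110618-94110660, plus strand): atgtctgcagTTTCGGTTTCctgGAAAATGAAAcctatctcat
IFI6 (chr1:27672266-27672358, minus strand): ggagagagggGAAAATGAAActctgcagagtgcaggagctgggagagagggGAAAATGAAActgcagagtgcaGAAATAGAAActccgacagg
IFI44L (chr1:78620274-78620394, plus strand): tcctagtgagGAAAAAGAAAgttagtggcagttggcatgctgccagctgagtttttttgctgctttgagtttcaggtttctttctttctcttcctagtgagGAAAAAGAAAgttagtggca

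The cores of IFIT1 lay from 116 to 94 bases before the start, with 3 bases between them. IFIT5 and IFI6 held 3 cores each, and the last core of IFIT5 and of IFITM1 spanned the start itself. In IFI27 the first core read in the TTTC form and the next in the GAAA form, so that they faced opposite ways. A GAS core, the letters TTCNNNGAA that STAT dimers are known to bind, was present in 7.66% of all windows. Among the members it was found in IFITM1 and IFI27, where it overlapped ISRE cores in both. A match describes the letters only and is not evidence of a bound factor.

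**Figure D1:**
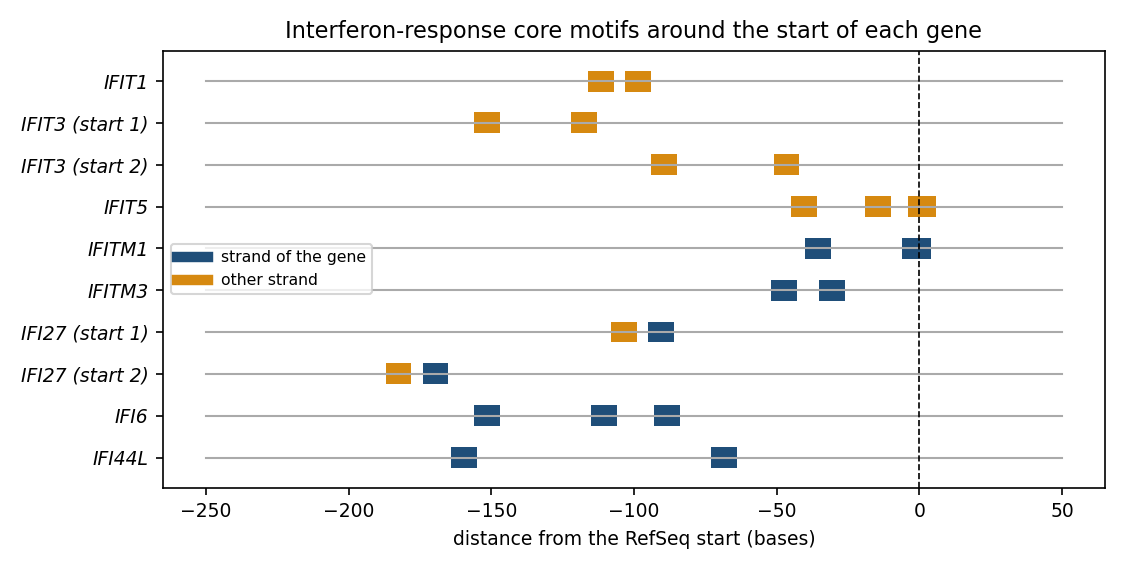
Position of the ISRE cores in the promoter windows of the members, with the distance from the start of the gene in bases on the x axis and 1 row per window. GAS cores are not drawn. Every window held at least 2 ISRE cores, and those of IFIT5 and IFI6 held 3.

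The members lie in 5 groups of loci on GRCh38, given here from GENCODE release 29. The IFIT genes form a cluster on the plus strand of chromosome 10, with IFIT2 at chr10:89283694-89309276, IFIT3 at chr10:89327894-89340971, IFIT1 at chr10:89392546-89406486 and IFIT5 at chr10:89414586-89421001. LIPA, the lysosomal acid lipase gene, overlaps IFIT1, IFIT2 and IFIT3 on the opposite strand. The study's methods describe strand-specific libraries, but the labels give a kit name that does not say so, and whether the counting used strand was not checked. Without strand, reads could not be told apart where exons of LIPA and of these IFIT genes overlap. Only the spans of the genes were compared here, not their exons. The IFITM genes are neighbors on chromosome 11, with IFITM2 at chr11:307631-315272 and IFITM1 at chr11:313506-315272 on the plus strand and IFITM3 at chr11:319669-327537 on the minus strand. IFI27 lies at chr14:94104836-94116698 on the plus strand. IFI6 lies at chr1:27666061-27672218 on the minus strand and IFI44L at chr1:78619922-78646145 on the plus strand of the same chromosome.

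The total estimated count was 32574716 to 36634184 per vehicle library and 36246466 to 38545695 per TP-472 library. Levels are given as CPM, counts relative to the total of their library as adjusted by the TMM method. A gene was called when the adjusted p-value was under 0.05 and the change was over 1.5-fold in edgeR's quasi-likelihood test with Benjamini-Hochberg adjustment over the 14073 genes tested. One library stood apart from its group. The median Spearman correlation of vehicle replicate 3 with the other vehicle libraries was 0.914, against 0.988 to 0.989 for the other vehicle libraries and 0.993 to 0.997 for the TP-472 libraries. Its deviation from the other vehicle libraries ran with the GC content of genes, with a median on the log2 scale of -0.63 in the third of genes lowest in GC and 0.81 in the third highest. Fold changes and calls of the members are therefore also given without it.

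All 10 members passed the filter on low counts. In TP-472-treated cells 8 of them were called lower and 0 higher. Of all genes tested, 14.9% were called lower and 12.0% higher, 26.9% in either direction. The called members were IFIT1, IFIT2, IFIT3, IFITM1, IFITM2, IFI27, IFI6 and IFI44L, and IFIT5 and IFITM3 were not called. In each of the 8 the groups did not overlap, with the TP-472 libraries below. Of all genes tested, 21.6% showed such a separation in this direction and 23.8% in the opposite one. The median log2 fold change of the 10 members was -1.47, against -0.03 over all genes tested. Without vehicle replicate 3 the same 8 members were called, beside 13.5% of all genes called lower and 12.4% called higher. In RNA from whole cultures, fewer cells expressing a gene and less of its RNA per cell cannot be told apart.

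**Figure D2:**
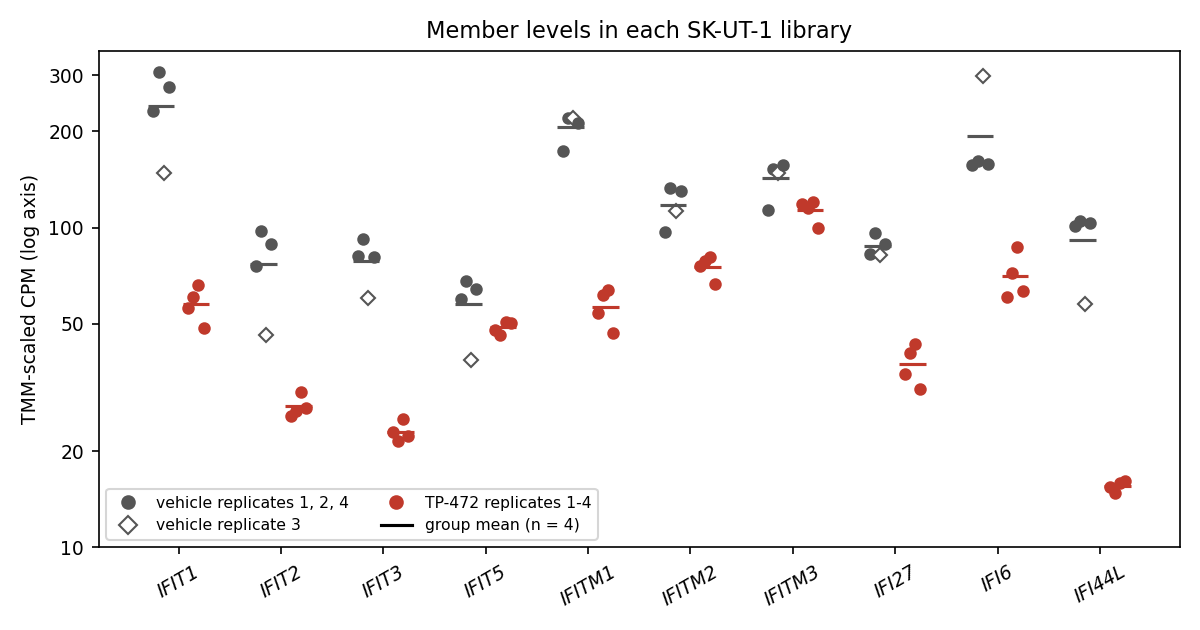
Level of each member in CPM on a log axis in the 8 libraries, with a line at the mean of 4 libraries and 1 point per library. The groups do not overlap in 8 members, while IFIT5 and IFITM3 overlap, and vehicle replicate 3 is the lowest vehicle library in 6 members and the highest in IFI6.

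The IFIT family was lower in 3 of 4 members. IFIT1, which binds RNA whose cap lacks the methylation of cellular mRNA, measured 231, 307, 148 and 275 CPM in vehicle replicates 1 to 4 and 55.9, 60.7, 66.2 and 48.4 CPM in TP-472 replicates 1 to 4. The lowest vehicle library, replicate 3, was still above all TP-472 libraries by a wide margin. The mean went from 240.3 ± 69.1 CPM to 57.8 ± 7.53 CPM (SD, n = 4), a log2 fold change of -2.06 (SE 0.222, edgeR adjusted p = 0.000331). The log2 fold change was -2.23 when vehicle replicate 3 was left out.

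IFIT3, which stabilizes IFIT1 in a complex, measured 81.6, 92.1, 60.3 and 80.9 CPM in the vehicle libraries and 23.0, 21.6, 25.3 and 22.3 CPM in the TP-472 libraries. The TP-472 libraries were close to each other, and vehicle replicate 3 was again the lowest of its group. IFIT3 went from a mean of 78.7 ± 13.3 CPM to 23.0 ± 1.61 CPM (SD, n = 4), a log2 fold change of -1.77 (SE 0.142, edgeR adjusted p = 8.83e-05). Leaving out vehicle replicate 3 gave -1.88.

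IFIT2, a partner of IFIT1 and IFIT3 that also has been linked to apoptosis, measured 75.9, 97.9, 46.2 and 88.9 CPM in the vehicle libraries and 25.7, 26.7, 30.7 and 27.2 CPM in the TP-472 libraries. The spread was mainly among the vehicle libraries, where replicate 3 was at 52.7% of the mean of the others. The mean fell to 35.7% of vehicle, from 77.2 ± 22.6 CPM to 27.6 ± 2.16 CPM (SD, n = 4), with a log2 fold change of -1.48 (SE 0.214, edgeR adjusted p = 0.00128). It was -1.67 without that library. A same-strand gene, AL353751.1, holds 7.96% of the 31-base words of IFIT2, and reads from these words could be divided between the genes.

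IFIT5, which binds RNA with a triphosphate end, did not pass the thresholds. It measured 59.8, 68.2, 38.6 and 64.1 CPM in the vehicle libraries and 47.9, 46.0, 50.8 and 50.4 CPM in the TP-472 libraries. Vehicle replicate 3 was below all TP-472 libraries and the other vehicle libraries were above them. The means were 57.7 ± 13.2 and 48.8 ± 2.25 CPM (SD, n = 4), with a log2 fold change of -0.24 (SE 0.169, edgeR adjusted p = 0.281). Without vehicle replicate 3 the log2 fold change was -0.40 (SE 0.0663, edgeR adjusted p = 0.00078), a difference under 1.5-fold, so that IFIT5 was not called there either. Its adjusted p ran from 0.000648 to 0.511 over the 17 alternative settings.

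Whether the IFIT genes changed to different extents was tested on the log2 ratio of each pair within a library, which does not depend on library scaling. In total 9 pairs were compared, 6 of IFIT and 3 of IFITM genes, with an exact two-sided permutation test over the 70 assignments of the libraries, whose smallest p-value is 0.0286. The IFIT1 to IFIT5 log2 ratio was 2.04 ± 0.11 in vehicle and 0.24 ± 0.21 with TP-472 (SD, n = 4), a difference of -1.80 (SE 0.12, exact permutation p = 0.0286, 0.0321 after Benjamini-Hochberg adjustment over the 9 pairs). The log2 ratios of IFIT3 and IFIT2 to IFIT5 also differed, by -1.55 (SE 0.07) and -1.22 (SE 0.07), with the same p-values. Among the 3 called IFIT genes, IFIT1 was lowered more than IFIT2, with a difference of -0.58 (SE 0.08, adjusted exact permutation p = 0.0321). The IFIT2 to IFIT3 log2 ratio differed by 0.33 (SE 0.12) with the same adjusted p, but this difference did not pass when vehicle replicate 3 was left out (0.22, adjusted exact permutation p = 0.0571), nor when any of the 4 TP-472 libraries was left out (0.31 to 0.36, adjusted exact permutation p = 0.0964). The IFIT1 to IFIT3 difference of -0.26 (SE 0.14) did not pass (exact permutation p = 0.114, also 0.114 after adjustment). The other 7 differences, those of the IFITM genes included, passed without vehicle replicate 3 (adjusted exact permutation p = 0.0367), with -1.84 for IFIT1 to IFIT5.

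The composition of the IFIT family changed with these differences. IFIT1 held 50.5% to 54.3% of the summed IFIT CPM in the vehicle libraries and 32.6% to 39.1% in the TP-472 libraries. IFIT5 held 12.1% to 13.3% in vehicle and 29.4% to 34% with TP-472. The shares of IFIT1 did not overlap between the groups, and neither did those of IFIT5. The summed level of the 4 genes was 453.9 ± 117.5 CPM in vehicle and 157.2 ± 10.8 CPM with TP-472 (SD, n = 4).

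**Figure D3:**
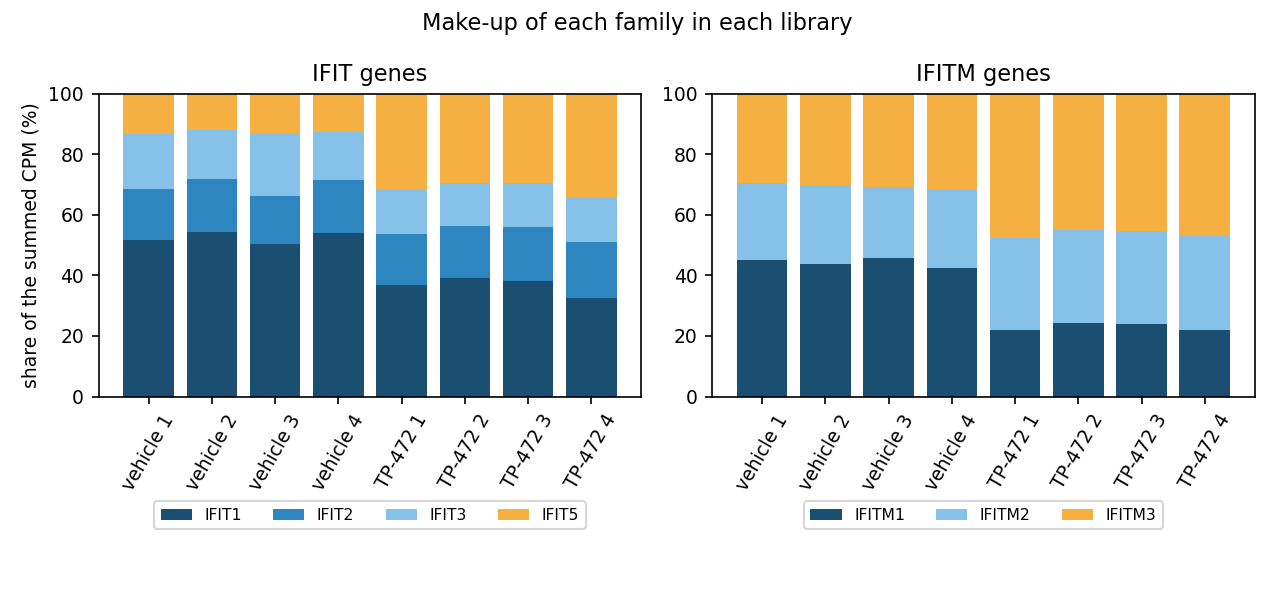
Share of each gene in the summed CPM of its family, in percent, for each of the 8 libraries, with the IFIT family and the IFITM family in separate panels. With TP-472 the share of IFIT5 rises from at most 13.3% to at least 29.4%, and that of IFITM3 from at most 31.5% to at least 45.1%.

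In the IFITM family the members differed as well. IFITM1, which is found mainly at the cell surface, measured 173, 221, 219.7 and 212 CPM in the vehicle libraries and 54.2, 61.7, 63.8 and 46.8 CPM in the TP-472 libraries. Vehicle replicate 3 lay within its group for this gene. IFITM1 went from a mean of 206.4 ± 22.5 CPM to 56.6 ± 7.71 CPM (SD, n = 4), a log2 fold change of -1.87 (SE 0.137, edgeR adjusted p = 6.09e-05). It was -1.84 without that library.

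IFITM2, a protein of late endosomes, measured 96.7, 133, 112 and 129.8 CPM in the vehicle libraries and 75.7, 78.6, 81.0 and 66.4 CPM in the TP-472 libraries. The groups did not overlap, although the gap between vehicle replicate 1 and TP-472 replicate 3 was small. Its mean went from 118 ± 16.8 CPM to 75.4 ± 6.38 CPM (SD, n = 4), a log2 fold change of -0.65 (SE 0.128, edgeR adjusted p = 0.00551), close to the limit of 1.5-fold. Removing the trend of each library with GC content, an alternative chosen after seeing the data, brought it to -0.52 (edgeR adjusted p = 0.0252, range over all alternatives 0.000433 to 0.0278), which is under 1.5-fold, and the call was lost.

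IFITM3, which acts in endosomes against influenza virus among others, measured 114, 152, 148 and 157 CPM in the vehicle libraries and 118, 115, 120.2 and 99.9 CPM in the TP-472 libraries. Vehicle replicate 1 was within the range of the TP-472 libraries and the other vehicle libraries were above it. The means were 143 ± 19.7 and 113 ± 9.23 CPM (SD, n = 4), and the log2 fold change of -0.33 did not pass (SE 0.127, edgeR adjusted p = 0.0664). Without vehicle replicate 3 it was -0.32 (edgeR adjusted p = 0.0359, range over all alternatives 0.0228 to 0.449) and remained under 1.5-fold.

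The log2 ratio of IFITM1 to IFITM3 was 0.53 ± 0.08 in vehicle and -1.01 ± 0.12 with TP-472 (SD, n = 4), a difference of -1.54 (SE 0.07, exact permutation p = 0.0286, 0.0321 after adjustment over the 9 pairs). IFITM1 was thus the more abundant by CPM in vehicle and IFITM3 with TP-472. The IFITM1 to IFITM2 ratio differed by -1.23 (SE 0.07) and the IFITM2 to IFITM3 ratio by -0.31 (SE 0.05), with the same p-values. IFITM1 held 42.5% to 45.7% of the summed IFITM CPM in the vehicle libraries and 21.8% to 24.1% in the TP-472 libraries. IFITM3 held 29.7% to 31.5% in vehicle and 45.1% to 47.6% with TP-472.

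The IFITM genes shared more sequence than the IFIT genes, so that the split of reads among them is less certain. In the annotation IFITM1 lies wholly within IFITM2 on the same strand, and how much of the sharing comes from this overlap and how much from likeness between the genes was not tested. Of the 31-base words of IFITM1, 35.3% were also found in other genes, mostly in IFITM2. The share was 45.2% for IFITM2 and 36.4% for IFITM3, while it was between 0.075% and 7.96% for the IFIT genes. The sum of the 3 IFITM genes does not depend on the split among them and was 467.4 ± 56.8 CPM in vehicle and 245 ± 22.6 CPM with TP-472 (SD, n = 4).

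The other 3 members were all lower. IFI44L, a gene induced by interferon whose protein has been described as antiviral, showed the largest fold change of the members. It measured 101, 105, 57.6 and 103 CPM in the vehicle libraries and 15.5, 14.8, 15.9 and 16.2 CPM in the TP-472 libraries. The TP-472 libraries were nearly equal, and vehicle replicate 3 was far below the others of its group. The mean went from 91.8 ± 22.8 CPM to 15.6 ± 0.58 CPM (SD, n = 4), 5.89-fold lower, with a log2 fold change of -2.56 (SE 0.195, edgeR adjusted p = 7.57e-05). With that library left out it was -2.73.

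IFI6, a small membrane protein that protects cells from apoptosis and from flaviviruses, measured 157, 162, 299.1 and 158 CPM in the vehicle libraries and 60.9, 72.2, 87.0 and 63.2 CPM in the TP-472 libraries. Here vehicle replicate 3 was the highest of its group, at 188% of the mean of the others. The mean went from 194 ± 70 CPM to 70.8 ± 11.8 CPM (SD, n = 4), a log2 fold change of -1.45 (SE 0.236, edgeR adjusted p = 0.00219). Without that library it was -1.17, and the gene was still called.

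IFI27, a small protein of mitochondrial and nuclear membranes, measured 82.9, 96.0, 82.1 and 88.7 CPM in the vehicle libraries and 34.9, 40.6, 43.2 and 31.3 CPM in the TP-472 libraries. Both groups were narrow and far apart. On average IFI27 went from 87.4 ± 6.43 CPM to 37.5 ± 5.4 CPM (SD, n = 4), a log2 fold change of -1.22 (SE 0.127, edgeR adjusted p = 0.000279). It was -1.25 without vehicle replicate 3.

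**Figure D4:**
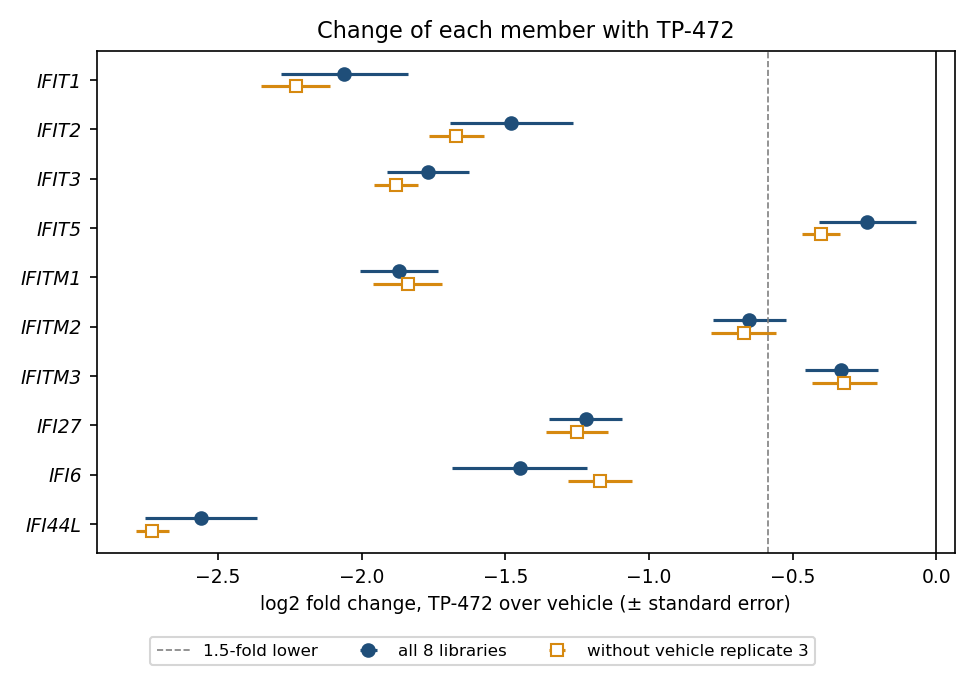
Log2 fold change of each member, TP-472 over vehicle, with its standard error, from all 8 libraries (filled points) and without vehicle replicate 3 (open squares). All 10 estimates are below 0, with IFI44L at -2.56 and IFIT5 at -0.24, and IFIT5 and IFITM3 lie to the right of the dashed line at 1.5-fold lower in both fits.

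The deviation of vehicle replicate 3 differed between members. IFIT1, IFIT2, IFIT5 and IFI44L were at 54.5%, 52.7%, 60.2% and 55.8% of the mean of the other vehicle libraries, whereas IFITM1, IFITM3 and IFI6 were at 109%, 105% and 188%. Across the 10 members, the Spearman correlation of this deviation with the GC content of the gene was 0.818, and it was 0.765 over 13970 genes tested. These are correlations across genes measured in the same libraries, and genes are not independent replicates. The GC content was 42.2% in IFIT1, 37.4% in IFIT5 and 37.8% in IFI44L, and 56.1% in IFI6. IFITM3 and IFITM2, with a GC content of 56.9% and 55.4% close to that of IFI6, deviated little in this library, by 0.08 and -0.08 on the log2 scale, against 0.91 for IFI6. The part of GC content in the difference of this library from the others was not tested.

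Levels were compared between genes per kilobase of the union of their exons. In vehicle the order of the levels from the highest was IFI6, IFITM1, IFITM3, IFITM2, IFIT1, IFIT3, IFI27, IFIT2, IFIT5 and IFI44L. IFI6 was at 224 ± 81.0, IFITM1 at 191 ± 20.9 and IFITM3 at 106 ± 14.6 CPM per kilobase (SD, n = 4). IFIT1 was at 52.1 ± 15 and IFI44L at 8.97 ± 2.23 CPM per kilobase. IFITM1 and IFITM3 were the only neighbors in this order whose libraries did not overlap, and the libraries of all other neighboring genes overlapped.

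With TP-472 the order was IFITM3, IFI6, IFITM1, IFITM2, IFIT1, IFIT5, IFI27, IFIT3, IFIT2 and IFI44L. IFITM3 was now the highest, at 84.1 ± 6.85 CPM per kilobase (SD, n = 4), and IFI44L the lowest, at 1.52 ± 0.0567. IFIT5, at 12.1 ± 0.562, stood beside IFIT1, at 12.5 ± 1.63 CPM per kilobase. Here IFITM3 overlapped IFI6, IFITM1 overlapped IFITM2, IFIT1 overlapped IFIT5 and IFI27 overlapped IFIT3, while the libraries of the other neighbors in the order were apart. The order depends on the length used, since with the longest transcript of each gene IFITM1 was first in vehicle with 241 and IFI6 next with 231 CPM per kilobase.

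The nearest relatives of the members were read from a list of 7 genes, of which 3 passed the filter on low counts. All 3 were called lower, beside 14.9% of all genes tested. IFI44, the neighbor and paralog of IFI44L, went from 58.9 ± 18.9 to 12.9 ± 1.05 CPM (SD, n = 4), a log2 fold change of -2.20 (SE 0.249, edgeR adjusted p = 0.000428). IFI27L2 had a log2 fold change of -0.70 (SE 0.161, edgeR adjusted p = 0.0103) and IFI27L1 one of -0.61 (SE 0.188, edgeR adjusted p = 0.0324). The others were under the filter. IFIT1B had 0 to 2 counts in the vehicle and 2 to 5 in the TP-472 libraries, IFITM5 had at most 1 count in any library, IFITM4P had 4 to 26 counts and IFITM10 had 7 to 34.

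The ligands of the pathway were at or near 0 counts in both groups, apart from IFNE. Of 21 interferon genes, 10 had 0 counts in all 8 libraries and 18 had at most 3 counts in any library. IFNB1, the interferon that most cell types can make, had 3, 2, 1 and 0 counts in the vehicle libraries and 4, 5, 0 and 0 in the TP-472 libraries. A count of 0 allows a level of up to 0.0776 CPM in TP-472 replicate 1 and up to 0.0868 CPM in vehicle replicate 3, taking 3 counts as the limit and covering counting error only. IFNE, an interferon of the female reproductive tract, was the only one above the filter, at 4.09 ± 1.46 CPM in vehicle and 2.16 ± 0.938 CPM with TP-472 (SD, n = 4), and did not pass (log2 fold change -0.92, SE 0.348, edgeR adjusted p = 0.0655).

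Among 9 interferon receptors and kinases, 3 were called lower and 0 higher, with a median log2 fold change of -0.08, beside 14.9% of all genes tested called lower. The type I receptor chains IFNAR1 and IFNAR2 had log2 fold changes of 0.08 and -0.25, and the kinases JAK1 and JAK2 of -0.02 and -0.08, and none of the 4 was called. The called genes were IFNLR1, a chain of the type III receptor, at -0.85 (edgeR adjusted p = 0.0111), TYK2 at -0.76 (edgeR adjusted p = 0.0168) and IL10RB at -0.60 (edgeR adjusted p = 0.00801). Without vehicle replicate 3 only IFNLR1 of the 9 was called, beside 13.5% of all genes tested called lower, and TYK2 had a log2 fold change of -0.52 and IL10RB of -0.53.

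Of 9 STAT and IRF transcription factors, 5 were called lower and 0 higher, beside 14.9% and 12.0% of all genes tested. Their median log2 fold change was -0.69. In 7 of the 9 the groups did not overlap, with the TP-472 libraries below, as in 21.6% of all genes tested, and genes that were not called are among these 7. IRF9 went from 54.9 ± 9.54 to 18.6 ± 2.09 CPM (SD, n = 4), a log2 fold change of -1.57 (SE 0.15, edgeR adjusted p = 0.000208). STAT2 went from 98.5 ± 12 to 37.1 ± 1.21 CPM, a log2 fold change of -1.41 (SE 0.111, edgeR adjusted p = 8.05e-05). IRF9 makes contact with DNA and STAT2 carries an activation domain. IRF7, an amplifier of interferon production, had a log2 fold change of -1.5 (SE 0.22, edgeR adjusted p = 0.00136). IRF2 was at -0.69 and lost its call without vehicle replicate 3 (log2 fold change -0.58). This left 4 called lower, beside 13.5% of all genes tested. STAT2, IRF7 and IRF9 are themselves induced by interferon.

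Among the inhibitors of the pathway, 9 were listed and 7 passed the filter, with a median log2 fold change of 0.13. USP18, which is itself induced by interferon and blocks the type I receptor, fell by 0.95 on the log2 scale (edgeR adjusted p = 0.000502), from 32.2 ± 1.93 to 16.7 ± 1.55 CPM (SD, n = 4). PTPN2, a phosphatase that acts on JAK1, rose from 35.8 ± 7.35 to 59.8 ± 0.844 CPM, a log2 fold change of 0.74 (edgeR adjusted p = 0.00706). The other 5 were not called, and 14.9% of all genes tested were called lower and 12.0% higher.

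A list of 52 other interferon-stimulated genes was compared with the members, and 50 of them passed the filter. Of these 50, 38 were called lower (76.0%) and 0 higher, beside 14.9% and 12.0% of all genes tested. The median log2 fold change of the list was -1.20. Without vehicle replicate 3, 13.5% of all genes tested and 39 genes of the list were called lower. The 5 with the largest change were XAF1 (-3.35), MX2 (-3.13), TRIM22 (-2.89), SAMD9L (-2.50) and DHX58 (-2.45), all on the log2 scale with edgeR adjusted p-values from 7.59e-06 to 8.83e-05. XAF1 promotes apoptosis, MX2 is a dynamin-like protein active against HIV, TRIM22 is an antiviral ubiquitin ligase and DHX58 is a regulator of RNA sensing. IFI44L and IFIT1, at -2.56 and -2.06, lay within the range of this list, and 12 of its genes were not called, as IFIT5 and IFITM3 were not.

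**Figure D5:**
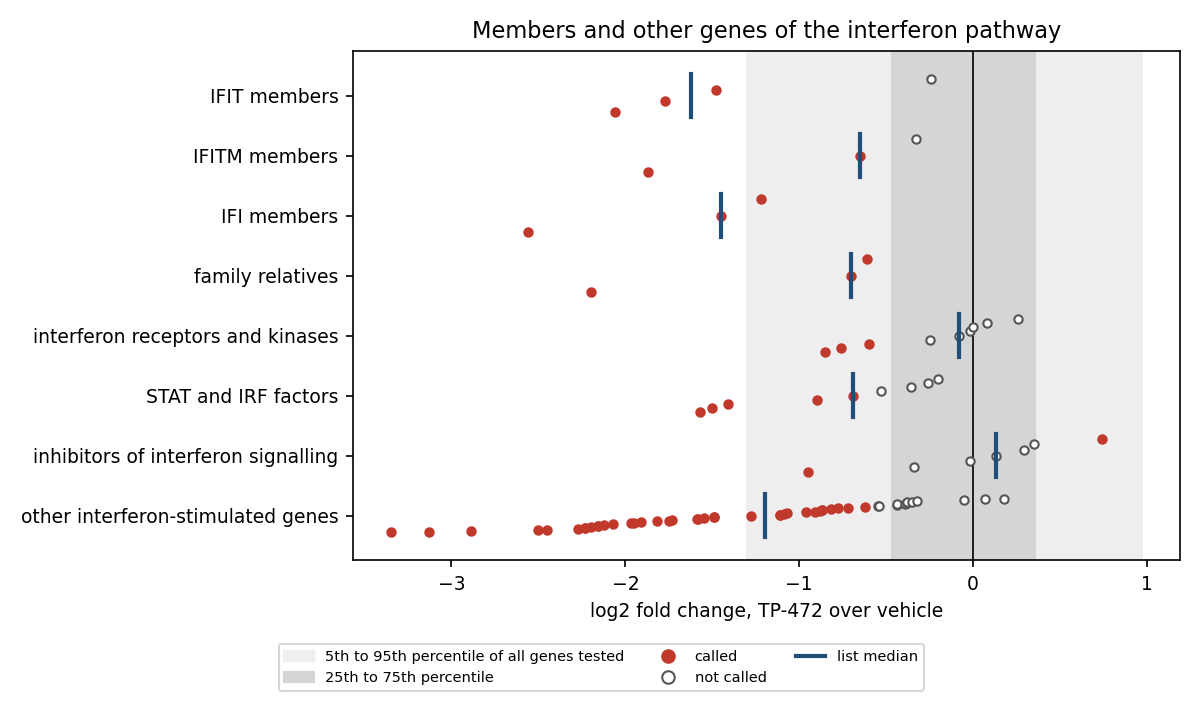
Log2 fold change of each tested gene, TP-472 over vehicle, by its place in the interferon pathway, with called genes filled, the list median as a bar and the percentiles of all genes tested shaded. The members lie below 0 and the other interferon-stimulated genes mostly so, with list medians of -1.62 for the IFIT, -0.65 for the IFITM and -1.45 for the IFI members and -1.20 for the other interferon-stimulated genes, while the receptors and kinases have a median of -0.08.

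The genes that TP-472 targets were themselves measured. BRD9 was at 80.1 ± 23.1 CPM in vehicle and 71.5 ± 3.17 CPM with TP-472 (SD, n = 4), a log2 fold change of -0.16 (SE 0.179, edgeR adjusted p = 0.486). BRD7 was at 56.2 ± 0.583 and 60.8 ± 2.65 CPM, a log2 fold change of 0.11 (SE 0.0856, edgeR adjusted p = 0.324). Neither was called, and an inhibitor acts on the protein, so their RNA checks no label.

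Markers of the labelled cell type and of others were summed to see whether they moved with the groups. The 8 smooth muscle markers summed to 437.7 to 520.4 CPM in the vehicle and 370.1 to 379.1 CPM in the TP-472 libraries, led by CALD1, with 2 of the 6 above the filter called lower. The 2 called lower were DES, which went from 3.25 to 0.629 CPM, and TAGLN (log2 fold change -0.67), beside 14.9% of all genes tested. CALD1, CNN1, ACTA2 and SMTN were not called, with log2 fold changes of -0.06, 0.13, -0.55 and -0.68. ACTA2 went from 160.3 to 109.4 CPM without overlap of the groups. Without vehicle replicate 3 it was called lower (log2 fold change -0.60), beside 13.5% of all genes tested, and SMTN was at -0.14. The defining markers MYH11 and MYOCD were under 1 CPM on average in both groups. MYH11 went the other way without overlap of the groups, from 0.00703 to 0.236 CPM. The 6 fibroblast markers summed to 2716.8 to 4328.7 CPM in vehicle and 2000.2 to 2143.8 CPM with TP-472. The sum was led by VIM, which was not called and measured 3545.6 CPM in vehicle replicate 3, against 2149.3 to 2247.6 CPM in the other vehicle libraries. Of the 6, 3 were called lower, beside 14.9% of all genes tested, namely COL1A2 (log2 fold change -2.58), COL1A1 (-2.35) and PDGFRB (-2.33). PDGFRA and THY1 were not called, with log2 fold changes of 0.20 and 0.25. The smooth muscle and fibroblast sums were thus both lower with TP-472, as the members were, while single markers differed in direction. The part of these 2 sums in the members' change was not tested. The 7 leukocyte markers summed to 7.65 to 8.97 CPM in vehicle and 10.6 to 13.5 CPM with TP-472, led by CD68, and the other 6 markers, PTPRC and CD3E among them, were under 1 CPM. The 5 epithelial markers summed to 17.5 to 23.1 CPM in vehicle and 20.4 to 26.8 CPM with TP-472, led by KRT18, with EPCAM and CDH1 under 1 CPM. Of the 3 above the filter, KRT18 was called higher (log2 fold change 1.08, edgeR adjusted p = 0.000726), KRT19 lower (log2 fold change -0.85, edgeR adjusted p = 0.0151) and KRT8 was not called, so the sum holds changes in opposite directions. The 4 endothelial markers summed to 0.0554 to 0.144 CPM in vehicle and 0.414 to 0.581 CPM with TP-472. The part of these sums in the members' change was not tested either.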

How the data were processed

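RNA of SK-UT-1 cells (4 vehicle and 4 TP-472 libraries) was analysed. The study's methods call the libraries strand-specific, while the kit named in the labels does not state strand. The authors ran Salmon 1.4.0 and summed transcripts to genes with GENCODE 34. The deposited values are estimated counts per gene by the authors, neither scaled nor filtered, and they were rounded here to whole numbers. The share of values that were not whole was 13.8% to 23.2% per library. A gene was tested if 4 or more of the 8 libraries exceeded 1 CPM, which left 14073 genes. After TMM scaling, edgeR 4.0.16 (R 4.3.3) compared the groups by its quasi-likelihood F test with no covariate. The limits of adjusted p 0.05 and 1.5-fold are those of the study. The standard error of a log2 fold change is its size divided by the root of F. DESeq2 1.42.0, limma 3.58.1 (voom), RLE, upper-quartile and total-count scaling, filterByExpr, no filter, the replicate number as a block and each library left out in turn were alternatives, and removal of a GC trend was added after seeing the data. No library was a copy, since the mean chi-square per gene was at least 12.8 for any pair.

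The members and the gene lists were chosen with earlier results of these data known, so a list's count is no independent evidence of its direction. Genes named are the members, their relatives, the members of the short pathway lists, the 5 called genes with the largest change in the list of other interferon-stimulated genes, BRD9, BRD7, called neighbors of the members and the 5 genes most alike them. LIPA, AL353751.1, TFRC and the cell type markers fall outside this rule and were named after their values were seen. Relatives and ligands under the filter are given as counts, and cell type markers as CPM whether or not they passed it. Coordinates come from GENCODE 29 and promoters from RefSeq, in a set that held no window for IFIT2 and IFITM2. The values of 1 gene in these lists are not reported here, although the counts and medians include it.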

Additional observations from a re-analysis of the deposited data

Results flagged for a closer look

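In 2 of 20 groups of 4 libraries (each member in each treatment) the most extreme library lay farther from the others than Dixon's 95% limit allows, and chance gives about 1 in 20. Both were vehicle replicate 3. IFI6 measured 299.1 CPM there, against 157 to 162 CPM in the other vehicle libraries. IFI44L measured 57.6 CPM, against 101 to 105 CPM in the others. The members kept their calls without this library, with log2 fold changes of -1.17 for IFI6 and -2.73 for IFI44L.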

How the results depend on the processing

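The 8 calls among the members were made under all 17 alternatives, except that removal of the GC trend left 7, without IFITM2 (log2 fold change -0.52). IFIT5 and IFITM3 were called under none. Over the alternatives the log2 fold change of IFIT1 ran from -2.23 to -1.92, that of IFI44L from -2.73 to -2.49 and that of IFI6 from -1.56 to -1.17. The other interferon-stimulated genes called lower numbered 36 to 39. DESeq2 called 2678 of all genes higher, against 1693, and 2897 lower, against 2096, and the cause was not tested. Leaving out 1 library gave 1408 to 2451 lower and 1336 to 1871 higher. With the longest transcript the vehicle level was 241 for IFITM1, 132 for IFITM2, 177 for IFITM3, 35.8 for IFI27 and 15.6 CPM per kilobase for IFI44L. With the replicate number as a block, 8 members, 37 other interferon-stimulated genes, 1555 genes lower and 1500 higher were called. The exact sign-flip test over 4 numbered pairs, whose smallest p-value is 0.125, cannot pass, and its differences were -0.58, -1.80, 0.33, -1.22, -1.55, -1.23, -1.54 and -0.31 for the 8 family pairs that passed. Leaving out 1 library, the IFIT2 to IFIT3 difference ran from 0.22 to 0.39. Same-numbered libraries had correlations of -0.0554, 0.116, -0.171 and -0.177, against -0.299 to 0.398 for libraries of different numbers. With 4 libraries per group these values cannot show whether the samples were paired, and the labels only number them. The lowest count of a member in any library was 526, for IFI44L in TP-472 replicate 2, and counting error was not compared with the spread between replicates.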

Other observations

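The protein-coding genes beside the members, 3 on each side, numbered 31, of which 21 passed the filter. Of these, 7 were called lower (IFI44, PGGHG, B4GALNT4, WASF2, OTUB2, IFI27L2 and IFI27L1) and 2 higher (CH25H and PPP4R4), with a median log2 fold change of -0.29. IFI44, IFI27L2 and IFI27L1 were already counted above as relatives of the members. Of all genes tested, 14.9% were called lower and 12.0% higher, with a median of -0.03. CH25H, which makes 25-hydroxycholesterol and lies near IFIT1, rose from 1.31 to 3.39 CPM (log2 fold change 1.37, edgeR adjusted p = 0.000975). PGGHG, beside the IFITM genes, fell from 48.1 to 14.4 CPM (log2 fold change -1.74, edgeR adjusted p = 0.00218). WASF2 lost its call without vehicle replicate 3. LIPA, which overlaps 3 IFIT genes on the opposite strand, was not called (log2 fold change -0.29, edgeR adjusted p = 0.263).

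The 5 genes whose log2 CPM was most like the mean profile of the members over the 8 libraries, out of 11068 genes whose mean reached 5 CPM, were CDKN1B (Pearson r = 0.998), UBE2L6 (0.995), DKK3 (0.994), ZFP14 (0.993) and GBP1 (0.990). All points share the treatment contrast, so this is a description. CDKN1B, the cell cycle inhibitor p27, went from 92.0 to 31.9 CPM. GBP1, a guanylate-binding protein induced by interferon, went from 143 to 67.4 CPM. DKK3 was not called (log2 fold change -0.54). Among the members themselves, the correlation with this mean profile was lowest for IFIT5 (0.569), then IFITM3 (0.821) and IFI6 (0.845), and 0.969 to 0.992 for the other 7.

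In the list of 12 reference genes 0 were called lower and 1 higher, beside 14.9% and 12.0% of all genes tested. The gene called higher was TFRC, with a log2 fold change of 1.47, and the median of the list was 0.06.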
